A study of Homo sapiens with 8 samples.

Results

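The genes described here are the 7 insulin-like growth factor (IGF) binding proteins (IGFBP1 to IGFBP7), the IGF1 receptor IGF1R, the insulin receptor INSR and the adaptor IRS2. They are 10 of the 67060 genes in the deposited count table, taken by symbol. They were chosen by the measured difference in RNA level between ERRg and GFP, since the set was proposed after the fold changes between the groups of these libraries were known, so its values are given as a description and carry no test of their own. SH-SY5Y is an established human neuroblastoma line, which the labels also call a neuronal progenitor. Cells of both groups were grown in DMEM with 10% FBS and antibiotics to 80% confluence and then received 0.5 ul of an adenovirus for 48 h. In the 4 libraries called ERRg the virus carried BioID-Flag-Esrrg, the estrogen-related receptor gamma joined to Flag and to the biotin ligase BioID. In the 4 libraries called GFP it carried BioID-GFP-NLS, so both groups share the virus and the ligase. The labels name 1 cell line and no untreated cells.

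IGF1 and IGF2 are secreted growth factors that bind the receptor tyrosine kinase IGF1R, a close relative of the insulin receptor. IRS adaptors dock on the activated receptors and pass the signal to PI3K, AKT and mTOR. The classical binding proteins, IGFBP1 to IGFBP6, hold the growth factors outside the cell with high affinity, can withhold them from the receptor or carry them to it, and are cut by proteases that release the growth factor. IGFBP7 is a more distant relative with low affinity for IGFs. In neuroblastoma, IGF signalling through IGF1R and the IRS adaptors is known for supporting growth and survival.

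ESRRG, the delivered receptor, stood at 808 ± 73.2 CPM in ERRg and 34.9 ± 2.34 CPM in GFP (CPM, library-scaled counts with TMM factors; SD, n = 4 each). Each GFP library held 27.67 to 35.52 M gene reads and each ERRg library 21.02 to 23.01 M. Reads assigned to no annotated feature, called reads outside annotated exons below, made up 16.2% to 24.2% of all reads in GFP and 45.5% to 48.3% in ERRg. The strand setting of the counting is not given, so they may include reads opposite to an exon. Among ERRg libraries, replicates 1 and 2 were closest (chi-square per gene 2.94), then replicates 3 and 4 (5.12), against 10.2 to 23.2 across these pairs, and several binding proteins below split the same way. Of 12 adrenergic neuroblastoma markers, 9 were at 5 CPM or more in GFP (HAND2 among them), while TH and CHGA were listed at 0 in every library. The table also lists SESN2 at 0, so a 0 was not read as absence of an RNA. Neural progenitor markers reached 5 CPM in 5 of 8 genes, mesenchymal and fibroblast markers in 11 of 12, and Schwann and glial markers in 0 of 6. In ERRg 6 of 9 tested adrenergic markers were lower (summed level 897 to 1020.01 CPM in GFP and 587 to 655 CPM in ERRg), as were 5 of 5 progenitor markers (885 to 1109.75 and 396 to 454 CPM) and 3 of 5 glial markers, with 1 higher (7.45 to 7.78 and 4.68 to 5.81 CPM). With the gene-feature offsets described further on, 3 adrenergic markers were lower and 2 higher, 5 of 5 progenitor markers were lower, and 0 glial markers were lower and 2 higher. Beside these markers, 50.6% of all coding genes were lower and 28.9% higher without offsets, and 43.3% and 28.6% with them. The part of these markers in the results below was not tested.

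Levels were compared between genes per length, as CPM per kilobase of merged exons (RPKM). IGFBP3 has 4571 bases of merged exons and a longest transcript of 2412 bases, while both are 8138 bases for IRS2. The rank of IGFBP3, and its share of the binding proteins below, therefore depend on this choice of length. In GFP the binding protein IGFBP4 was highest at 230.4 ± 24.8 RPKM, followed by IGFBP5 at 117 ± 12.4, IGFBP2 at 85.8 ± 6.28 and IGFBP6 at 43.8 ± 4.35 RPKM (SD, n = 4). IRS2 at 18.9 ± 0.518 RPKM and IGFBP3 at 18.8 ± 1.42 RPKM overlapped, IGF1R lay below both at 15.4 ± 0.418 RPKM, and INSR was far lower at 0.541 ± 0.0806 RPKM. IGFBP7 at 0.351 ± 0.0678 RPKM and IGFBP1 at 0.0928 ± 0.0459 RPKM closed the order. No other neighbours in this order overlapped across the 4 GFP libraries. In ERRg the order was different. IGFBP5 at 123 ± 6.95 RPKM came level with IGFBP4 at 120.5 ± 21.2 RPKM, their libraries overlapping. IGFBP2 followed at 31.5 ± 5.69 RPKM, and IGF1R (12.8 ± 0.96), IRS2 (12.1 ± 0.574) and IGFBP6 (10.5 ± 2.05 RPKM) overlapped in that order. IGFBP3 had dropped below them to 3.46 ± 0.254 RPKM, and IGFBP7 at 0.885 ± 0.138 RPKM lay above INSR at 0.542 ± 0.0194 RPKM.

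The bases just before the RefSeq transcription start are shown for the 2 most abundant binding proteins, IGFBP4 and IGFBP5. With TMM alone IGFBP4 was lower in ERRg and IGFBP5 did not differ beyond its spread. The bases are also shown for IGFBP3 and IGFBP6, which differed most. Sequences are RefSeq promoter windows on GRCh38.p14, written 5′ to 3′ on the strand of the gene and ending at the base before the start. Capitals mark GGGCGG (the GC box, to which SP-family factors bind) or its reverse complement CCGCCC, and TATAAA. IGFBP4 lies on the plus strand at chr17:40443200-40443449, IGFBP5 on the minus strand at chr2:216695550-216695799, IGFBP3 on the minus strand at chr7:45921273-45921302 and IGFBP6 on the plus strand at chr12:53097637-53097666. For the last pair only the final 30 bases are shown. These 30 bases lie inside the annotated spans of IGFBP3 and IGFBP6 given below. They precede the RefSeq start but not every annotated start.
IGFBP4: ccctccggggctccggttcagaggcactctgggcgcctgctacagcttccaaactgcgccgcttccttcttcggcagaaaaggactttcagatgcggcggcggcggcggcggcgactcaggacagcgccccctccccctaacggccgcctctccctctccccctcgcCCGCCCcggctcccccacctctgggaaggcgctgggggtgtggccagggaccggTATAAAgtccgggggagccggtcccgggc
IGFBP5: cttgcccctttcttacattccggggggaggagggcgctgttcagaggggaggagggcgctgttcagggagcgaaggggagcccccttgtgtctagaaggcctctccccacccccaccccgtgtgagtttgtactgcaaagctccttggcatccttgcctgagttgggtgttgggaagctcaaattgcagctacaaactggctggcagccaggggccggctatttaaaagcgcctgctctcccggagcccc
IGFBP3: tatatagcggccggcgcgcccgggCCGCCC
IGFBP6: acttaagacagagGGGCGGcggcgggcagc

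Windows from 250 bases before to 50 after the start were matched for 8 of the 10 genes (10 windows, 3 of them for IGFBP2). The motif TCAAGGTCA, which estrogen-related receptors bind, and AAGGTCA, the shorter core contained in it, were searched on both strands. Neither was found in any of the 10 windows. Among 35116 windows of the same length, 0.353% held TCAAGGTCA and 3.92% held AAGGTCA, and no match says only that these letters are not in these windows. GGGCGG or CCGCCC was found in 2 of the 3 IGFBP2 windows and in the windows of IGFBP3, IGFBP4, IGFBP6, IGF1R, INSR and IRS2, but not in that of IGFBP5, and 45% of all windows held it. TATAAA was found in the IGFBP4 window alone, 29 bases before the start, and 11.5% of all windows held it. Each motif was searched as exact letters, so similar stretches in the other windows were not counted. The windows of IGFBP3 and IGFBP4 were rich in G and C (74.7% and 74%), those of IGFBP5 and IGFBP6 less so (59% and 61.7%).

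Of the 10 genes, 9 passed the filter on low counts and IGFBP1 did not. By edgeR over all 21993 genes tested, 6 were lower in ERRg (IGFBP2, IGFBP3, IGFBP4, IGFBP6, IGF1R and IRS2), 1 was higher (IGFBP7) and 2 were not called (IGFBP5 and INSR). Over all genes tested 35.9% were called lower and 38.8% higher at an adjusted p under 0.05. Of all called genes 51.9% were higher, a share that was 64.6% under upper-quartile scaling and 68.7% under scaling by totals. Among coding genes it was 36.3% in the same fit, 48.5% when coding genes were fitted alone and 39.8% when they were fitted with the gene-feature offsets. The libraries of the groups did not overlap in 7 of the 9 (6 lower, 1 higher), against 68.4% of all genes tested (34.6% lower, 33.9% higher). The choice of genes used this contrast, so nothing is read from these counts. The median log2 fold change of the 9 was -0.64, beside 0.09 for all genes tested and -0.30 for coding genes. With the offsets the median of the 9 was 0.05, beside -0.10 for coding genes. In these bulk libraries fewer cells making an RNA and less of the RNA per cell cannot be told apart.

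**Figure D1:**
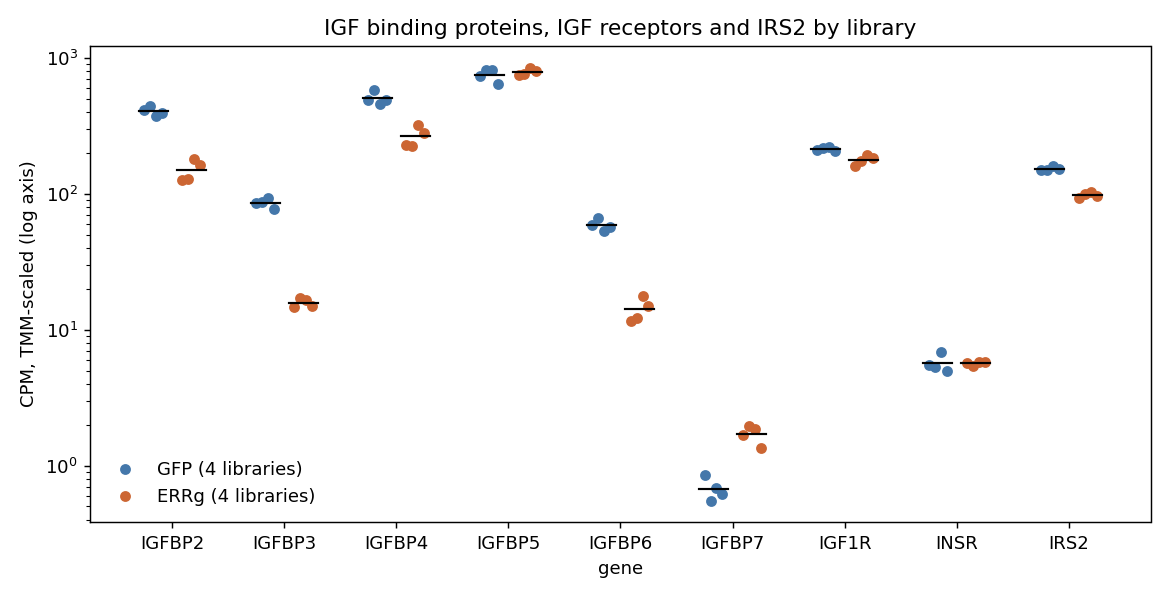
CPM of 9 genes in each of the 8 libraries on a log axis, with GFP libraries in blue, ERRg libraries in orange and a black bar at each group mean. The groups are apart for IGFBP2, IGFBP3, IGFBP4, IGFBP6, IGFBP7, IGF1R and IRS2, and overlap for IGFBP5 and INSR.

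IGFBP3, the main IGF carrier of blood plasma and also a growth-inhibiting protein in its own right, fell most. Its level was 86.1, 87.8, 92.9 and 77.3 CPM in GFP replicates 1 to 4 and 14.6, 17.1, 16.5 and 15.0 CPM in ERRg replicates 1 to 4. The ERRg libraries lay close together and far below every GFP library. The mean was 5.44-fold lower in ERRg (log2 fold change -2.44, SE 0.10). Replicates 1 and 2 (mean 15.8 CPM) and replicates 3 and 4 (15.8 CPM) of ERRg had the same level. IGFBP3 (ENSG00000146674.15) spans 9630 bases of chromosome 7, from 45912245 to 45921874.

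IGFBP6, a binding protein with a preference for IGF2, was the next lowest by fold. It stood at 58.8, 67.0, 53.2 and 56.7 CPM in GFP and at 11.7, 12.1, 17.6 and 15.0 CPM in ERRg. All ERRg libraries were below all GFP libraries, replicates 3 and 4 above replicates 1 and 2 (means 16.3 and 11.9 CPM). The mean was 4.18-fold lower (log2 fold change -2.06, SE 0.12), and the log2 fold change with the offsets was nearer 0, at -0.68. The gene (ENSG00000167779.9) lies on chromosome 12 from 53097436 to 53102345.

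IGFBP2, a binding protein common in the developing nervous system, gave 416, 447, 377 and 397 CPM in GFP and 127, 129, 182 and 164 CPM in ERRg. Again no library overlapped, and ERRg replicates 3 and 4 (mean 173 CPM) were above replicates 1 and 2 (128 CPM). Its mean was 2.72-fold lower in ERRg (log2 fold change -1.44, SE 0.11), and -0.67 on the log2 scale with the offsets. IGFBP4, which is known mainly as an inhibitor of IGF action and as the substrate of the protease PAPPA, gave 489, 586, 462 and 490.3 CPM in GFP and 229, 226, 324 and 281 CPM in ERRg. The groups did not overlap, and the ERRg pairs differed as for IGFBP2 (means 228 and 303 CPM). Its mean was 1.91-fold lower (log2 fold change -0.94, SE 0.11). The direction of IGFBP4 turned in the fits with gene-feature offsets described further on.

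IGFBP5, the most conserved of the family and a binder of extracellular matrix, did not follow the other abundant binding proteins. It stood at 743, 812, 819 and 647 CPM in GFP and at 755, 764, 852 and 806 CPM in ERRg. The groups overlapped, with GFP replicate 4 lowest and ERRg replicate 3 highest. The means were 755 ± 79.7 and 794 ± 44.8 CPM (log2 fold change 0.07, SE 0.09). It was called higher under upper-quartile scaling (0.38) and under scaling by totals (0.48), for which the median of all genes was 0.40 and 0.50. It was also called higher in coding genes alone (0.34). With the gene-feature offsets described further on it was called higher at 0.59, beside a coding median of -0.10. With the GC offset alone it was called higher at 0.60.

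IGFBP2 and IGFBP5 are neighbours that face each other on chromosome 2. IGFBP2 (ENSG00000115457.10) lies from 216632828 to 216664436 on the plus strand and IGFBP5 (ENSG00000115461.5) from 216672105 to 216695525 on the minus strand, 7668 bases apart. The first of these had a log2 fold change of -1.44 and the second of 0.07. IGFBP1 and IGFBP3 form the same arrangement on chromosome 7, 18576 bases apart. IGFBP1, the insulin-regulated binding protein of liver, had 3, 5, 7 and 2 reads in GFP and 0, 2, 0 and 0 reads in ERRg. These reads are too few for a fold change.

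IGFBP7, which is known from vessel walls and from senescent cells, was the only one of the 9 called higher. Its level was 0.856, 0.552, 0.684 and 0.617 CPM in GFP and 1.69, 1.95, 1.85 and 1.34 CPM in ERRg. All ERRg libraries were above all GFP libraries, at a low level that rested on 15 to 24 reads in GFP and 33 to 52 in ERRg. The mean was 2.52-fold higher (log2 fold change 1.33, SE 0.24). The exons of IGFBP7 overlap 270 bases of POLR2B, a subunit of RNA polymerase II, on the opposite strand of chromosome 4. POLR2B itself stood at 173 CPM in GFP and 238 CPM in ERRg, and the part of its reads in the IGFBP7 count was not tested. In the annotation used here none of the 10 genes shares exon bases with another gene on its own strand.

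The summed level of the 7 binding proteins was 497 ± 40.5 RPKM in GFP and 290.2 ± 35.9 RPKM in ERRg (SD, n = 4 each). The ERRg libraries ranged from 261 to 335 RPKM, all below the GFP libraries at 466 to 556 RPKM. Without IGFBP5 the sums were 379 ± 35.0 and 167 ± 28.9 RPKM. The make-up of the sum moved with it. IGFBP5 held 23.6% ± 2.19 of the summed RPKM in GFP and 42.8% ± 2.81 in ERRg, with no overlap between libraries. IGFBP2 went from 17.3% ± 0.676 to 10.8% ± 0.645, IGFBP6 from 8.81% ± 0.346 to 3.59% ± 0.255 and IGFBP3 from 3.80% ± 0.35 to 1.203% ± 0.162. The share of IGFBP4 was closer between the groups, at 46.4% ± 1.87 and 41.3% ± 2.16, its highest ERRg library (43.9%) just under its lowest GFP library (44.1%). These shares are taken within a library, so the scaling between libraries does not enter them, but features of the genes such as GC content can. With the offsets IGFBP4 and IGFBP5, which hold most of the sum, were both called higher (0.23 and 0.59). The lower sum and the lower share of IGFBP4 are therefore statements on levels without offsets.

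**Figure D2:**
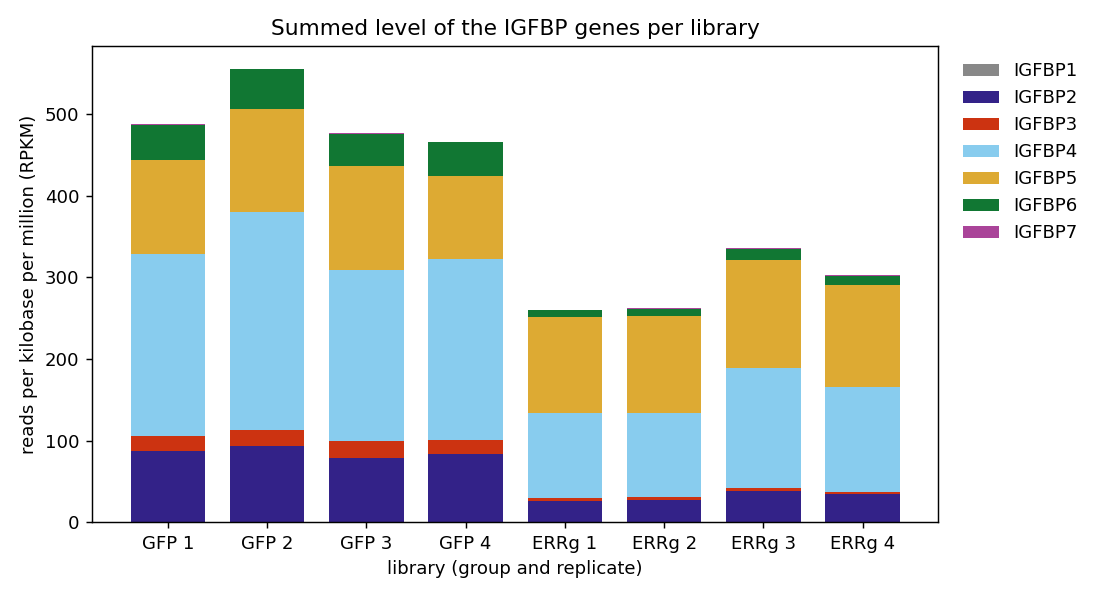
Stacked RPKM of the 7 IGFBP genes in each library, GFP replicates 1 to 4 on the left and ERRg replicates 1 to 4 on the right. The bars of ERRg (261 to 335 RPKM) are shorter than those of GFP (466 to 556 RPKM), while the IGFBP5 segment keeps its height.

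Among the receptors, IGF1R was slightly lower in ERRg and INSR did not differ beyond its spread. IGF1R stood at 211, 218, 220.2 and 208 CPM in GFP and at 162, 174, 193 and 185 CPM in ERRg. The groups did not overlap, but the gap was small. The mean was 1.202-fold lower (log2 fold change -0.27, SE 0.08). Its direction turned under upper-quartile scaling (0.04) and under scaling by totals (0.14). With the offset for GC content described further on, IGF1R was called higher (0.24). Its call ended when genes under 1 CPM were left out (-0.15) and with ERRg replicates 3 and 4 alone (-0.20). INSR had 5.46, 5.35, 6.87 and 4.94 CPM in GFP and 5.68, 5.37, 5.79 and 5.81 CPM in ERRg, the GFP libraries on both sides of the ERRg libraries. Its means were 5.65 ± 0.842 and 5.66 ± 0.203 CPM. Under upper-quartile scaling (0.30) and scaling by totals (0.40) it was called higher. Per length IGF1R exceeded INSR by 24.02 to 31.6 times in GFP libraries and by 21.4 to 24.9 times in ERRg libraries, ranges that overlap. IGF1R (ENSG00000140443.15) spans 315992 bases of chromosome 15 and INSR (ENSG00000171105.14) spans 181780 bases of chromosome 19, much longer than any of the binding proteins.

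IRS2, the adaptor that links both receptors to PI3K and whose gene is itself activated by FOXO factors when insulin signalling is low, was lower in ERRg. It stood at 151, 150.2, 159 and 154 CPM in GFP and at 92.9, 99.99, 104 and 96.9 CPM in ERRg. Both groups were tight and did not overlap. The mean was 1.56-fold lower (log2 fold change -0.64, SE 0.08). Its direction, like that of IGFBP4, turned with gene-feature offsets. IRS2 (ENSG00000185950.9) lies on chromosome 13 from 109752698 to 109786568 and has 2 exons.

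Fold changes can run with the GC content, length and span of a gene, so each coding gene was also fitted with offsets for these features. Such offsets also take out any difference between the groups that runs with these features. The longest transcripts of IGFBP6 and IGFBP4 have 64.1% and 62.5% GC, those of IRS2 and IGFBP2 58.7% and 57.1%, and those of the other members 49.0% to 52.1%. With the offsets IGFBP3 remained the lowest (log2 fold change -1.88, SE 0.06), and IGFBP6 (-0.68, SE 0.06) and IGFBP2 (-0.67, SE 0.06) were lower by less. IGFBP4 turned to 0.23 (SE 0.05) and IRS2 to 0.16 (SE 0.07), IGFBP5 was called higher at 0.59 (SE 0.05), and IGFBP7 stood at 1.82 (SE 0.23). IGF1R was at -0.18 (SE 0.05) and INSR at 0.05 (SE 0.11). The median of all coding genes in that fit was -0.10. In all, 4 of the 9 were then higher and 4 lower, where 28.6% of 13400 coding genes were called higher and 43.3% lower (71.9% in either direction). With an offset for GC content alone 6 were higher, IGF1R (0.24) and INSR (0.32) among them, and 3 were lower, where 30.3% of coding genes were called higher and 42.5% lower (72.8% in either direction). IGFBP2, IGFBP3 and IGFBP6 were called lower, and IGFBP7 higher, in each of the 3 fits. The share of reads outside annotated exons also separated the groups without overlap and cannot be told apart from the group.

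**Figure D3:**
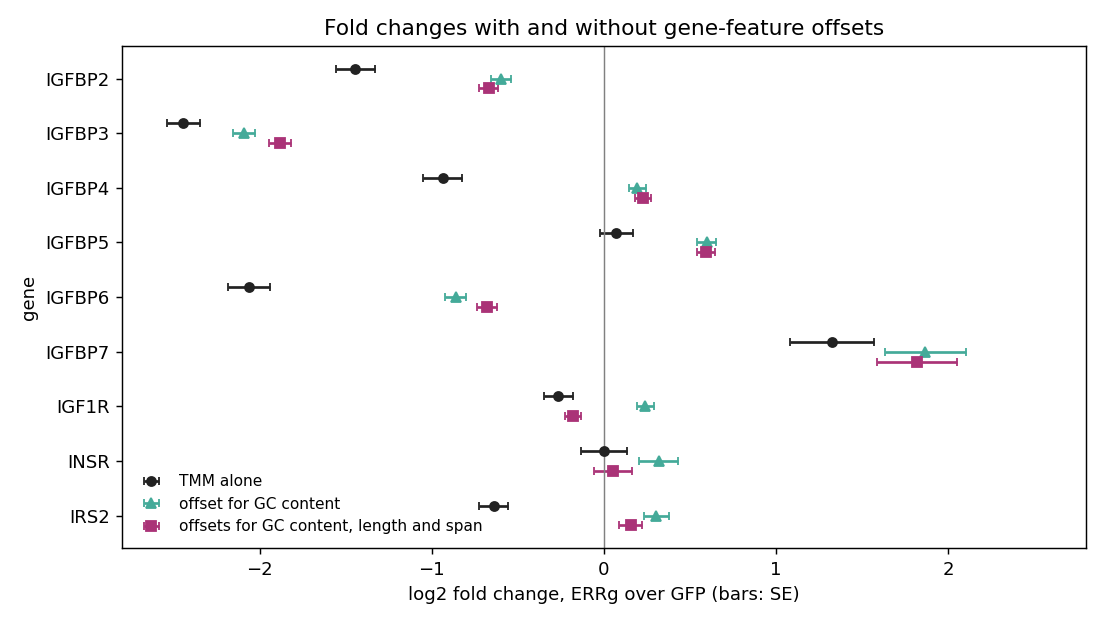
Log2 fold change of 9 genes, ERRg over GFP, with its SE, from the fit with TMM alone (circles), with a GC offset (triangles) and with offsets for all 3 gene features (squares). IGFBP2, IGFBP3 and IGFBP6 stay left of 0 and IGFBP7 right of it in all 3 fits. IGFBP4 and IRS2 cross 0 with either kind of offset, and IGF1R crosses 0 with the GC offset only.

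The genes with the profile most like that of IGFBP3, by the root mean square difference of centred log2 CPM over the 8 libraries, were PLAT (0.139), FAIM2 (0.150), DKK1 (0.156) and NPY (0.164). They were ranked among 11907 candidates. PLAT encodes tissue plasminogen activator and DKK1 a secreted WNT antagonist, and their log2 fold changes were -2.59 and -2.23. Nearest to IGFBP5 were BBS9 (0.0416), the receptor tyrosine kinase RET (0.0544), GSDME (0.0587) and SLC6A6 (0.0595). Among the nearest to IRS2 were RRAS2 (0.0288), IKZF4 (0.0342) and UBE2R2 (0.0385). These distances are a description.

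The other genes of the pathway were taken from 10 lists of 101 genes, of which 85 were tested. By edgeR, 48 of the 85 were lower in ERRg (56.5%) and 24 higher (28.2%), with a median log2 fold change of -0.49. Coding genes as a whole were lower in 50.6% and higher in 28.9%, with a median of -0.30. Of the same 85 genes 42 fell and 21 rose once the offsets were in the fit (median -0.20, beside -0.10 for coding genes). Of them 7 were called in opposite directions by these fits. With the offsets 43.3% of coding genes were lower and 28.6% higher. Counts for the single lists below are to be read beside these coding shares.

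Ligands could not be followed. IGF1 had 0 to 2 reads per library and INS was listed at 0. IGF2 had 0 to 5 reads, and 73.7% of its exon bases also belong to genes annotated on the same strand, INS-IGF2 among them, and HTSeq by default counts a read that fits both genes for neither. Its level is therefore not known from this table. Of the 5 other receptors, 3 were lower and 1 higher, and with the offsets 3 and 2. IGF2R, which takes IGF2 into the cell for breakdown, went from 577 ± 18.5 to 480 ± 30.9 CPM (SE 0.09 around a log2 fold change of -0.27, edgeR adjusted p = 0.0084) and turned with library totals (0.14). TMEM219, described as a receptor for IGFBP3, fell from 53.0 ± 8.16 to 16.7 ± 2.79 CPM (-1.67, and -0.92 with the offsets). LRP1, an endocytic receptor that also binds IGFBP3, was at -0.81, and at -0.25 with the offsets. INSRR, the insulin receptor-related receptor, rose from 8.56 ± 0.497 to 12.1 ± 1.35 CPM (0.50, and 1.52 with the offsets; adjusted p from edgeR 5.34e-04).

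Of the 8 tested genes for proteases that cut binding proteins, their inhibitors and the ternary complex, 4 were lower and 2 higher, and with the offsets 4 and 1. The serine protease HTRA1, which cuts IGFBP5, stood at 195 ± 4.03 CPM in GFP and 73.4 ± 7.04 CPM in ERRg (-1.41, SE 0.09, adjusted p from edgeR 8.93e-11). The gelatinase MMP2 fell from 492 ± 25.4 to 189.6 ± 20.9 CPM (-1.38, SE 0.09). The disintegrin ADAM12, which cuts IGFBP3 and IGFBP5, fell from 131 ± 12.0 to 64.2 ± 1.95 CPM (-1.02, SE 0.09). All 3 were also lower with the offsets (-0.58, -0.76 and -1.14). ADAM9 rose from 138 ± 6.03 to 219.5 ± 24.9 CPM (0.67, and 0.13 with the offsets). PAPPA, named here after its values were seen because it cuts IGFBP4, was at 213 ± 18.5 and 245 ± 12.7 CPM (0.21, edgeR adjusted p = 0.0412), overlapping groups, and was not called once offsets were used (adjusted p = 0.376).

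Genes with an IGFBP domain outside the family gave 5 lower and 1 higher of 9 (median -0.61), and with the offsets 2 lower and 2 higher (median 0.09). IGFBPL1, named after its values were seen, turned from -0.51 to 0.71 and was called in both fits. KAZALD1 fell from 13.8 ± 1.37 to 3.83 ± 1.18 CPM (log2 fold change -1.85, and -0.66 with the offsets), and HTRA4 rose from 0.514 ± 0.0991 to 1.38 ± 0.331 CPM (1.41, and 2.05). CCN1, a matrix protein and a target of YAP, went from 177 ± 6.89 to 108 ± 8.22 CPM (-0.71, edgeR adjusted p = 2.83e-07), a call that ended with the offsets (-0.05, adjusted p = 0.41). Of the mesenchymal and fibroblast markers, 9 of 11 tested were lower with TMM and 9 with the offsets, beside 50.6% and 43.3% of coding genes. The sets were not the same. TWIST1 turned from -0.48 to 0.24, PRRX1 was lower only with the offsets, and LUM was higher only with TMM. The summed level of the 12 markers was 3722 to 4237 CPM in GFP and 2645 to 2976 CPM in ERRg, and none was at 0 in all libraries. Their part in the result was not tested.

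Adaptors were called in both directions, 6 lower and 5 higher of 11. IRS1, the close relative of IRS2, stood at 128 ± 6.97 CPM in GFP and 80.6 ± 7.88 CPM in ERRg (-0.67, SE 0.09, adjusted p from edgeR 1.43e-06) and, unlike IRS2, stayed lower with the offsets (-0.41). IRS4 was listed at 0. SHC1 fell from 779 ± 64.6 to 288 ± 31.3 CPM (-1.44), GRB2 from 325 ± 25.0 to 179 ± 18.2 CPM (-0.86) and SH2B2 from 8.88 ± 1.74 to 2.67 ± 0.311 CPM (-1.74). SHC1 and GRB2 carry the signal towards RAS, and all 3 were lower with the offsets (-0.52, -0.43 and -0.49). SOS1, the exchange factor that GRB2 brings to RAS, rose from 86.2 ± 6.96 to 156 ± 21.6 CPM (0.86, and 0.12 with the offsets).

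Inhibitors of the receptors were lower in 5 and higher in 2 of 9, and with the offsets in 5 and 1. SOCS3, which marks the receptors and IRS proteins for breakdown, fell from 51.9 ± 3.93 to 18.4 ± 2.29 CPM (log2 fold change -1.50, and -0.33 with the offsets). The AKT-binding pseudokinase TRIB3 was at -1.49, and at -0.51 with the offsets. The phosphatase PTPRF was at -0.96 and at -0.26. SOCS1 was at -1.34, edgeR adjusted p = 2.39e-07, and its direction turned with the offsets (0.13, adjusted p = 0.444).

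From PI3K to AKT, 10 of 14 were lower and 4 higher, and with the offsets 7 were lower and 0 higher. Coding genes were lower in 50.6% and higher in 28.9%, and with the offsets in 43.3% and 28.6%. PIK3R2, among those lower without offsets, had 9 to 36 reads per library. Of its exon bases 87.2% also belong to a gene annotated on the same strand. AKT2, the isoform most tied to insulin action, fell from 254 ± 25.5 to 101 ± 13.9 CPM (log2 fold change -1.33, and -0.56 with the offsets) and AKT1 from 188 ± 17.9 to 84.3 ± 14.5 CPM (-1.16, and -0.21). The PI3K inhibitor PIK3IP1 was at -1.38, and at -0.66 with the offsets. The lipid phosphatase INPPL1 was at -1.12, edgeR adjusted p = 2.29e-08, and was not called with the offsets (-0.05, adjusted p = 0.376). In the mTOR branch 8 of 13 were lower and 2 higher, and with the offsets 9 and 4. The translation repressor EIF4EBP1 fell from 132 ± 18.7 to 38.9 ± 8.501 CPM (-1.76, and -0.51 with the offsets), RPS6KB2 was at -1.78 (-0.77), MLST8 at -1.49 (-0.15) and AKT1S1 at -1.45 (-0.33). RICTOR, the defining subunit of mTOR complex 2, was chosen after its values were seen. It rose from 18.5 ± 2.79 to 48.0 ± 7.99 CPM (1.38, edgeR adjusted p = 3.46e-09, and 0.57 with the offsets).

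FOXO factors and genes described as FOXO-responsive were called in both directions, 7 lower and 6 higher of 14, and with the offsets 6 lower and 7 higher. PDK4, which inhibits pyruvate dehydrogenase and is also a target of estrogen-related receptors, was highest by fold (log2 fold change 2.47, and 2.19 with the offsets). SESN3, a stress-induced sestrin, rose from 119 ± 10.3 to 273 ± 26.5 CPM (1.19, and 0.51). TXNIP, which restrains glucose uptake, fell from 60.8 ± 8.33 to 26.5 ± 3.13 CPM (-1.20, and -1.01) and FOXO4 from 8.66 ± 1.25 to 3.51 ± 0.744 CPM (-1.30, and -0.36). Of the 3 proteins that bind IGF2 mRNA, IGF2BP3 rose from 121 ± 8.40 to 162 ± 3.35 CPM (0.42) and IGF2BP2 went from 175 ± 8.26 to 143 ± 1.77 CPM (-0.29). IGF2BP3 turned with the offsets (-0.10, edgeR adjusted p = 0.162), and IGF2BP2 turned with library totals (0.11).

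**Figure D4:**
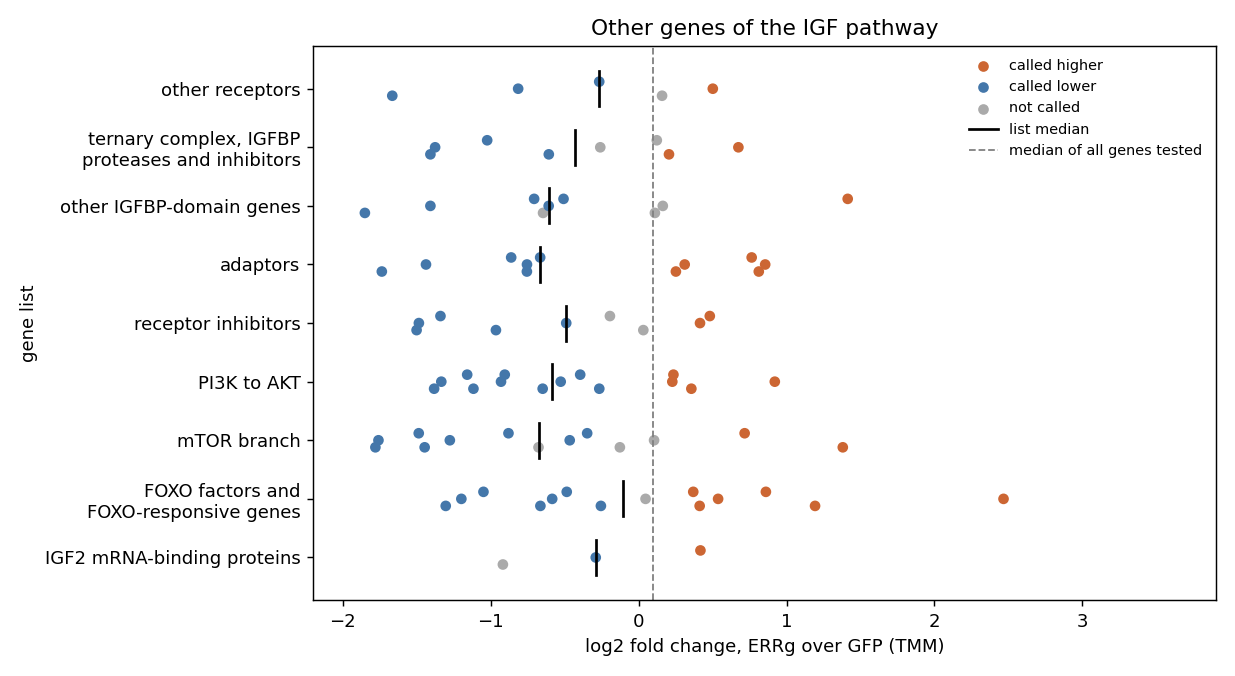
Log2 fold change, ERRg over GFP with TMM, of each tested gene in 9 lists of the IGF pathway, coloured by its edgeR call. Black bars mark list medians, which lie left of the dashed median of all genes tested (0.09) in each list, while beside the median of coding genes (-0.30) those of the other receptors (-0.27), the FOXO list (-0.10) and the IGF2 mRNA-binding proteins (-0.29) lie to the right.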

How the data were processed

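RNA was sequenced from 8 libraries of SH-SY5Y cells. The authors deposited raw counts of reads per gene in a single table, not normalized. Per the labels' protocols, ribosomal RNA was removed and a directional library module kept strand. The submitters' processing notes list STAR 2.7.8a, HTSeq 0.11.3, Trim Galore 0.6.6, CASAVA, DESeq2 and build GRCh38. Neither the annotation release nor the strand setting is given in the sources used here. The 5 summary lines that name no gene stayed out of library sizes. Their shares were reads outside exons (20.9% ± 3.58 in GFP and 46.7% ± 1.31 in ERRg, SD, n = 4), reads in several genes (12.1% ± 1.46 and 5.44% ± 0.415) and multiply aligned reads (11.9% ± 1.32 and 6.41% ± 0.449), and the remaining summary lines were at 0.

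Symbols came from a name table, and positions, exon lengths and transcript GC content from GENCODE release 29. Counts were fitted in R 4.3.3 with edgeR 4.0.16 (two-sided quasi-likelihood test, TMM, filterByExpr, adjusted p by Benjamini-Hochberg under 0.05 over 21993 genes) with group as the sole term. The fit was tested on simulated data. Offsets were per-library natural splines (5 degrees of freedom per feature) of log2 CPM. CPM used TMM effective library sizes, and RPKM divided them by merged exon length. Alternatives used DESeq2 1.42.0, limma 3.58.1 (voom), other scalings and filters, and left-out libraries.

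Members and lists were chosen with earlier results of these data known. Members, ESRRG, IGF1, IGF2, IGF2R, IRS1, IRS4 and INSRR were always named. From each list the rule named the 4 largest absolute log2 fold changes among called genes with an average log2 CPM of at least 0, and for IGFBP3, IGFBP5 and IRS2 the 4 nearest profiles (average log2 CPM of at least 1). A gene that this rule named is not reported here. Whether replicates were separate cultures is not in the labels. P-values then cover only the spread among these libraries, and that spread may be technical.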

Additional observations from a re-analysis of the deposited data

How the results depend on the processing

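IGFBP2, IGFBP3 and IGFBP6 were called lower under each alternative run, including the test that asks for more than a change of 1 on the log2 scale, and IGFBP7 was called higher under each except that test (edgeR adjusted p = 0.132). That test also ended the calls of IGFBP4, IGF1R and IRS2, left 1692 genes higher and 2302 lower, and left 3 other pathway genes higher and 17 lower, as its construction asks for a larger change. Comparisons of ERRg replicates 1 and 2, or 3 and 4, with GFP, and the fit of coding genes without offsets, were chosen after seeing the data. Coding genes alone left 5245 genes higher, offsets for all 3 features 3831 and the GC offset 4059, each with fewer genes tested. Library totals gave 11791 genes higher and 5383 lower and upper-quartile factors 11041 and 6045, with medians of all genes of 0.50 and 0.40. Leaving out each library in turn gave 7611 to 8518 genes higher, 7755 to 8247 lower, and 19 to 23 pathway genes higher and 48 to 50 lower.

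Among the 10 genes and the pathway genes named by the rule, direction turned as follows on the log2 scale, and the cause was not tested. A turn here is a change of sign of any size. With TMM alone INSR was at -6.44e-05 (SE 0.133), so it had no clear direction to turn from. Of all 85 pathway genes tested, 7 were called in opposite directions with TMM and with all 3 offsets. With offsets for all 3 features IGFBP4 was at 0.23, INSR at 0.053, IRS2 at 0.16, SOCS1 at 0.13 and IGF2BP3 at -0.10. With the GC offset IGFBP4 was at 0.19, IGF1R at 0.24, INSR at 0.32, IRS2 at 0.30, IGF2R at 0.077, LRP1 at 0.19, SOCS1 at 0.063, PTPRF at 0.0079 and IGF2BP2 at 0.00083. With upper-quartile factors IGF1R was at 0.038, INSR at 0.30, IGF2R at 0.037 and IGF2BP2 at 0.014, and with library totals these were at 0.14, 0.40, 0.14 and 0.11. Coding genes alone put IGF1R at 2.25e-05 and INSR at 0.27. The INSR log2 fold change was at 0.11 with the 1 CPM filter, 0.00886 with voom, 0.016 without mitochondrially encoded genes and 0.017 with ERRg replicates 3 and 4. Leaving out each library gave -0.12 to 0.016 for INSR and -0.066 to 0.086 for the IGFBP5 log2 fold change, which was at -0.00966 with ERRg replicates 1 and 2.

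No link between same-numbered libraries is given beyond the number. Their deviations correlated at 0.088, -0.158, -0.080 and -0.052, and 1 of 4 matched its own number best. Whether such libraries were prepared together cannot be told from these values. With the replicate block 8191 genes were higher and 7653 lower, the INSR log2 fold change was at 0.00914, and 1 of the 9 genes was higher and 6 lower as without it. At these depths IGFBP1 had at most 7 reads per library and IGFBP7 at most 52.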
